A study of Homo sapiens with 8 samples.

Results

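The genes examined were the tumour necrosis factor (TNF) superfamily, the TNF receptors and a set of NF-kB regulators, chosen by name: every gene whose symbol begins with TNFSF or TNFRSF, together with NFKB1, NFKB2, RELA, RELB, REL, NFKBIA, NFKBIB, NFKBIE, NFKBIZ, TNFAIP2, TNFAIP3, BIRC2, BIRC3, TRAF1 and TRAF2. They numbered 48 of the 25369 named genes in the count table, as 12 ligands, 21 receptors, 5 NF-kB subunits, 4 IkB proteins and 6 signalling regulators. Poly(A) RNA was sequenced from UWB1.289, a human ovarian cancer cell line with an inactivating BRCA1 mutation (BRCA1-null), and from UWB1.289 cells transduced with BRCA1 (BRCA1+). Each line received DMSO vehicle (control) or 0.5 uM entinostat, an inhibitor of the histone deacetylases HDAC1 and HDAC3, for 24 h, which gave 4 groups with 2 libraries in each. The comparisons address how these genes differ between BRCA1-null and BRCA1+ cells, how each line responds to the inhibitor, and whether the response depends on the line.

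The 8 libraries held 31900158 to 53549893 counts, and the 48 genes took 0.0899% to 0.152% of them. BRCA1 itself had 800 to 1218 counts in the 4 BRCA1-null and 3954 to 5473 in the 4 BRCA1+ libraries, which follows the labels. Each line is a single cell population, so a difference between the lines cannot be told apart from any other difference that arose while the BRCA1+ line was derived. The labels do not say that the 2 libraries of a group came from separate cultures, so the p-values measure the spread between these libraries, which may be technical. In bulk RNA, fewer cells with a transcript and less transcript per cell cannot be told apart. CPM denotes a count scaled to the library size with TMM factors. Levels of different genes are compared only as CPM per kb of gene length, except for the sums of cell type markers, which are in CPM. Values after ± are SDs of 2 libraries for levels and standard errors for log2 fold changes. Genes with an adjusted p under 0.05 by the quasi-likelihood test of edgeR (Benjamini-Hochberg, over 17714 tested genes) were called, and adjusted p refers to that test throughout. The filter on low counts left 44 of the 48 genes, and TNFSF8, TNFSF13B, TNFRSF13B and TNFRSF17 did not.

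TNF superfamily ligands are mostly trimeric membrane or secreted proteins that bind receptors of the TNFRSF family on the same or another cell. Receptors without a death domain recruit TRAF adaptors and ubiquitin ligases of the BIRC family, receptors with a death domain can also start apoptosis, and decoy receptors bind ligand without signalling. Much of this signalling ends at NF-kB, dimers of RELA, RELB, REL and the processed products of NFKB1 and NFKB2, which IkB proteins hold inactive until they are degraded. NF-kB in turn activates the genes of several of its own inhibitors, including NFKBIA and TNFAIP3, and in epithelial cancers the pathway is known for its link to inflammation and cell survival.

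The DNA element that NF-kB dimers bind is the kappaB motif, and it is shown here in the promoters of genes whose transcripts are described below. The following windows are reference sequence from RefSeq on GRCh38.p14, read on the strand of the gene and ending before the transcription start, and the capitals mark matches to the 10-base kappaB consensus, searched on both strands. They were chosen because they belong to genes of subunits, inhibitors, a ubiquitin ligase (BIRC3) and a receptor that were called between the lines, and NFKBIB is added as a gene with a match that was not.
NFKB1 (chr4:102501290-102501339, plus strand): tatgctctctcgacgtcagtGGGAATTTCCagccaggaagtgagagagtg
NFKB2 (chr10:102394451-102394529, plus strand): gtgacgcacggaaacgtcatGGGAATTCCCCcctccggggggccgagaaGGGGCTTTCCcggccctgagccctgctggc
REL (chr2:60881507-60881557, plus strand): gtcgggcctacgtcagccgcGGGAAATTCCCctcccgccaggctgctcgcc
NFKBIA (chr14:35404801-35404850, minus strand): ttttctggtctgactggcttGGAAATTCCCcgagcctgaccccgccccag
TNFAIP3 (chr6:137867172-137867233, plus strand): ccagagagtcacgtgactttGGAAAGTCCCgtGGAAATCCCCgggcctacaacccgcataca
BIRC3 (chr11:102317265-102317314, plus strand): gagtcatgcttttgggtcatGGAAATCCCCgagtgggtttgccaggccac
NFKBIZ (chr3:101827747-101827796, plus strand): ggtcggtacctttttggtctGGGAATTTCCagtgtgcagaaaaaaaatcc
TNFRSF9 (chr1:7940883-7940933, minus strand): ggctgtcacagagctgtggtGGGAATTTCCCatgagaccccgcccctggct
NFKBIB (chr19:38899921-38899968, plus strand): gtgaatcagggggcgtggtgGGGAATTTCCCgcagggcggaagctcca

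A promoter entry, which spans 250 bases before to 50 bases after the start, was available for 34 of the 48 genes, and 13 of these (38.2%) held a kappaB match. The share was 8.92% among the 11745 tested genes with an entry and 7.09% among all 27305 genes of the promoter table. Of the 13 genes with a match, 11 were called higher in BRCA1-null than in BRCA1+ control cells (BIRC3, NFKB1, NFKB2, NFKBIA, NFKBIZ, REL, TNFAIP3, TNFRSF14, TNFRSF25, TNFRSF9 and TNFSF14), and NFKBIB and TNFSF13 were not called. Of the 19 tested genes with an entry and no match, 12 were called higher, among them RELA, TRAF1, TNFAIP2, TNFRSF8, TNFSF15 and TNFSF18, while TNFSF4 and TNFSF9 were called lower and 5 were not called. Of the 44 genes tested here 29 were called higher, beside 21.1% of all tested genes. Whether a match goes with the line difference was not tested. A match is a run of letters and not a measured binding site.

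In control medium, 31 of the 44 tested genes (70.5%) differed between the lines, beside 42.2% of all tested genes. The direction was uneven. In BRCA1-null cells 29 were higher and 2 (TNFSF4 and TNFSF9) lower, whereas 21.1% and 21% of all tested genes were called higher and lower. The median log2 fold change of the 44 genes was 0.97, beside 0.012 for all genes. With entinostat in both lines, a contrast of the other 4 libraries under the same estimate of spread, 29 of the 44 (65.9%) differed, 27 higher and the same 2 lower, beside 39.4% of all tested genes, and the median was 0.57 beside 0.019. All 4 BRCA1-null libraries lay above all 4 BRCA1+ libraries in CPM for 25 of the 44 genes (56.8%), beside 20.1% of all tested genes, and all 4 lay below for 3 (6.82%, again beside 20.1%), namely TNFSF4, TNFSF9 and NFKBIB. In CPM the groups did not overlap for 30 genes higher and 5 lower in control, beside 70.9% of all tested genes, and for 32 higher and 6 lower in entinostat, beside 69.5%. With a log2 fold change past 1 in size also required, 23 genes were called in control and 18 in entinostat, beside 12.4% and 10.5% of all tested genes. When 1 library was omitted, between 21 and 31 of the genes were called in control and between 22 and 29 in entinostat, and the single calls lost are named below.

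**Figure D1:**
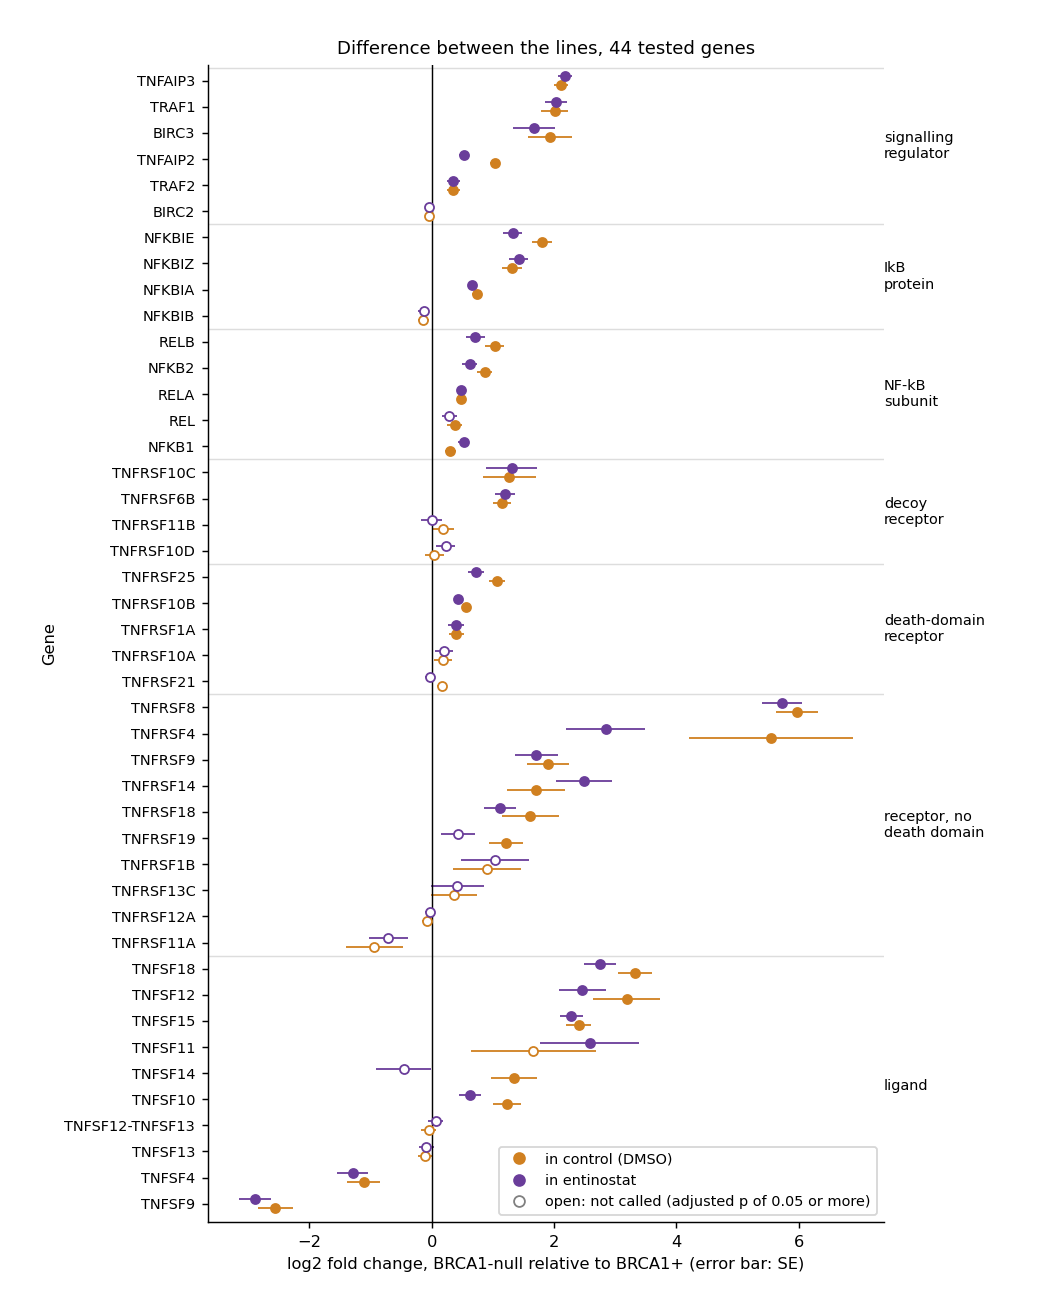
Log2 fold change of BRCA1-null relative to BRCA1+ cells for the 44 tested genes (horizontal axis, points with standard errors), by gene and role (vertical axis), in control and in entinostat. Filled points are called at an adjusted p under 0.05; 29 of the filled control points lie to the right of 0 and 2, TNFSF4 and TNFSF9, to the left; the control point of TNFRSF4 rests on 0 counts in BRCA1+ cells and is not a fold to be read.

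Among the ligands, 7 of 10 tested (70%, beside the 42.2% of all genes) were called in control cells, 5 higher and 2 lower in BRCA1-null cells. TNFSF18, the ligand of the co-stimulatory receptor GITR, lies at chr1:173010360-173020103 on hg19 (minus strand). It had 31 and 66 counts in untreated and 32 and 106 in treated BRCA1+ libraries, and 565 and 564 in untreated and 556 and 489 in treated BRCA1-null libraries. Every BRCA1-null library held more than any BRCA1+ library. The difference was 3.33 ± 0.279 on the log2 scale in control (adjusted p = 2.67e-05) and 2.75 ± 0.263 in entinostat (adjusted p = 5.70e-05), and 3.54 there without BRCA1+ entinostat replicate 2. TNFSF4, the OX40 ligand, is its neighbour at chr1:173152870-173176471 (minus strand) and went the other way. Its counts were 62 and 76 in untreated and 67 and 117 in treated BRCA1+ libraries, and 30 and 44 in untreated and 53 and 32 in treated BRCA1-null libraries. In CPM no BRCA1-null library reached a BRCA1+ library, and the log2 fold change was -1.11 ± 0.274 in control (adjusted p = 0.0101), and with entinostat it was -1.29 ± 0.250 (adjusted p = 0.00302). The control call was lost without BRCA1+ control replicate 2 (adjusted p = 0.0603). In the deposited table the spans listed for SRGAP2D and FAM72C also cover TNFSF18 and TNFSF4.

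TNFSF9, the ligand of the lymphocyte receptor 4-1BB, had the lowest log2 fold change of the 44 genes in both media. It lies at chr19:6531010-6535939 (plus strand) and had 132 and 168 counts in BRCA1+ control and 207 and 215 in BRCA1+ entinostat, against 31 and 28 in untreated and 32 and 33 in treated BRCA1-null libraries. The groups did not overlap in either medium, and the log2 fold change was -2.56 ± 0.291 in control (adjusted p = 1.44e-04) and -2.89 ± 0.266 in entinostat (adjusted p = 4.63e-05). TNFSF15 (TL1A), the ligand of the death receptor TNFRSF25, was higher in BRCA1-null cells. Its counts went from 67 and 87 in BRCA1+ control and 96 and 113 in BRCA1+ entinostat to 488 and 453 in untreated and 655 and 502 in treated BRCA1-null libraries. That is 1.79 ± 0.155 CPM against 9.53 ± 1.69 CPM in control, a log2 fold change of 2.40 ± 0.205 (adjusted p = 2.92e-05), and it was 2.28 ± 0.187 in entinostat (adjusted p = 2.51e-05).

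TNFSF10, better known as TRAIL, can trigger apoptosis in tumour cells and was the only ligand called in all 4 comparisons of line and of treatment. It had 47 and 64 counts in untreated and 106 and 153 in treated BRCA1+ libraries, and 156 and 147 in untreated and 262 and 192 in treated BRCA1-null libraries. The mean CPM of BRCA1+ cells with entinostat (3.32 ± 0.0317) was close to that of BRCA1-null cells without it (3.07 ± 0.512), and the line difference was 1.23 ± 0.233 on the log2 scale in control (adjusted p = 0.00260), and with entinostat it was 0.62 ± 0.179 (adjusted p = 0.0214). The entinostat call between the lines was lost without either BRCA1+ entinostat library or without BRCA1-null entinostat replicate 1 (adjusted p = 0.0794 to 0.136), and by DESeq2's Wald test (adjusted p = 0.0721). TNFSF14 (LIGHT), a ligand of the receptor HVEM, had 18 and 27 counts in BRCA1+ control and 41 and 93 in BRCA1-null control libraries. Its control difference of 1.35 ± 0.378 (adjusted p = 0.0184) was lost without either BRCA1+ control library or BRCA1-null control replicate 2 (adjusted p = 0.0603 to 0.143), and its levels with entinostat are described below.

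TNFSF12 (TWEAK), the ligand of TNFRSF12A, had 8 and 6 counts in untreated and 18 and 21 in treated BRCA1+ libraries, and 78 and 72 in untreated and 163 and 83 in treated BRCA1-null libraries. The log2 fold changes of 3.18 ± 0.548 in control (adjusted p = 0.00158) and 2.46 ± 0.386 in entinostat (adjusted p = 9.50e-04) are uncertain, since TNFSF12, TNFSF13 and the readthrough TNFSF12-TNFSF13 overlap on chromosome 17 (chr17:7452375-7464925) and how shared reads were counted was not given in the sources used here. The readthrough and TNFSF13 were not called between the lines and had 21.5 to 27.6 and 35.5 to 46.1 CPM in the control libraries. TNFSF11 (RANKL), the osteoclast differentiation factor, was near the limit of detection, with 4 and 1 counts in untreated and 4 and 2 in treated BRCA1+ libraries, and 14 and 5 in untreated and 31 and 11 in treated BRCA1-null libraries. It was called in entinostat alone, at 2.58 ± 0.806 (adjusted p = 0.0278), and lost that call without either BRCA1+ entinostat library or BRCA1-null entinostat replicate 1 (adjusted p = 0.0594 to 0.223), and by DESeq2's Wald test (adjusted p = 0.0964). TNFSF8, the CD30 ligand, was absent from the 4 BRCA1+ libraries at this depth (0 counts, which allows up to 3 in a library). It had 1 and 2 counts in untreated and 15 and 9 in treated BRCA1-null libraries. The treated mean CPM was 6.97 times the BRCA1+ entinostat floor, set at 3 counts over the group. That ratio leaves out the counting error of the 15 and 9 counts, and TNFSF8 was not tested because it failed the filter.

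Receptors were called higher in BRCA1-null control cells in 11 of 19 cases (57.9%, beside 21.1% of all tested genes) and lower in none of the 19 tested. TNFRSF8 (CD30), an activation marker of lymphocytes and of some lymphomas, differed most. It lies at chr1:12123434-12204264 (plus strand) and had 4 and 4 counts in untreated and 1 and 9 in treated BRCA1+ libraries, and 262 and 341 in untreated and 338 and 275 in treated BRCA1-null libraries. Against 0.0936 ± 0.00912 CPM in BRCA1+ control, the level was 6.02 ± 0.364 CPM in BRCA1-null control, a log2 fold change of 5.97 ± 0.341 (adjusted p = 2.98e-06). In entinostat it was 5.72 ± 0.325 (adjusted p = 3.27e-06), and 5.12 or 7.65 without BRCA1+ entinostat replicate 1 or 2. TNFRSF4 (OX40), a co-stimulatory receptor of T cells, was near the limit of detection in BRCA1+ cells. It had 0 and 0 counts in untreated and 1 and 2 in treated BRCA1+ libraries, and 3 and 10 in untreated and 14 and 12 in treated BRCA1-null libraries. Its mean CPM in BRCA1-null control was 3.58 times the BRCA1+ floor, set at 3 counts over the group (adjusted p = 0.00862). That ratio leaves out the counting error of the 3 and 10 counts, and replicate 1 was itself at the floor of its library. In entinostat the ratio of CPM over the summed counts was 7.63, with an exact 95% counting interval of 2.34 to 39.4 (adjusted p = 0.00681). Both calls were lost in some omissions, in control without BRCA1+ control replicate 2 or BRCA1-null control replicate 2 (adjusted p = 0.0502 and 0.0525) and in entinostat without either BRCA1+ entinostat library (adjusted p = 0.0603 and 0.0832) or by DESeq2's Wald test (adjusted p = 0.136).

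TNFRSF9, the receptor 4-1BB whose ligand TNFSF9 was lower, was itself higher in BRCA1-null cells. Its counts were 34 and 46 in untreated and 43 and 39 in treated BRCA1+ libraries, and 159 and 188 in untreated and 206 and 101 in treated BRCA1-null libraries. The log2 fold change was 1.90 ± 0.342 in control (adjusted p = 0.00203) and 1.71 ± 0.349 in entinostat (adjusted p = 0.00403). Without BRCA1+ entinostat replicate 2 the call in entinostat was lost (adjusted p = 0.0619). TNFRSF14 (HVEM), which binds LIGHT, had 3 and 15 counts in untreated and 4 and 11 in treated BRCA1+ libraries, and 33 and 36 in untreated and 50 and 47 in treated BRCA1-null libraries. The control difference of 1.71 ± 0.475 (adjusted p = 0.0178) moved to 3.16 without BRCA1+ control replicate 2 and was lost without BRCA1+ control replicate 1 or BRCA1-null control replicate 1 (adjusted p = 0.104 and 0.0502). The entinostat difference was 2.49 ± 0.458 (adjusted p = 0.00232) and held in every omission. TNFRSF14 overlaps the opposite-strand gene LOC100133445, and whether counting used strand was not stated.

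TNFRSF18 (GITR), the receptor of TNFSF18, differed both by line and by entinostat. It had 11 and 13 counts in untreated and 32 and 69 in treated BRCA1+ libraries, and 27 and 59 in untreated and 139 and 110 in treated BRCA1-null libraries. Treated BRCA1+ and untreated BRCA1-null libraries overlapped. The line difference was 1.61 ± 0.470 in control (adjusted p = 0.0220) and 1.12 ± 0.264 in entinostat (adjusted p = 0.00852). It was lost without either BRCA1+ control library or BRCA1-null control replicate 2 (adjusted p = 0.0854 to 0.162), and in entinostat without BRCA1+ entinostat replicate 1 (adjusted p = 0.0583). TNFRSF19 (TROY), a receptor of the embryonic nervous system and skin, had 39 and 40, 35 and 72, 80 and 134, and 81 and 82 counts in the same order of groups. Its difference of 1.21 ± 0.275 in control (adjusted p = 0.00670) was lost without BRCA1+ control replicate 2 or BRCA1-null control replicate 2 (adjusted p = 0.0535 and 0.0512). In entinostat TNFRSF19 was not called (adjusted p = 0.248). TNFRSF12A (Fn14), the TWEAK receptor, was the highest of all 48 genes per kb of length in each group, at 209 ± 11.0 CPM per kb in BRCA1+ control and 198 ± 13.4 in BRCA1-null control, and was not called between the lines. TNFRSF13B, TNFRSF17 and TNFRSF13C, the receptors of BAFF and APRIL that mark B cells and plasma cells, had 0 counts, 0 to 5 counts and 20 to 48 counts per library.

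Of the death-domain receptors, TNFRSF25 (DR3), which binds TL1A, was higher together with its ligand TNFSF15. It had 311 and 325 counts in untreated and 295 and 349 in treated BRCA1+ libraries, and 661 and 893 in untreated and 677 and 543 in treated BRCA1-null libraries, and the groups did not overlap. The log2 fold change was 1.06 ± 0.130 in control (adjusted p = 2.23e-04) and 0.73 ± 0.134 in entinostat (adjusted p = 0.00235), and the gene overlaps PLEKHG5 on the same strand. TNFRSF10B (DR5), a TRAIL receptor that signals death, ranged from 26.8 to 28.0 CPM in BRCA1+ control and from 39.8 to 41.1 in BRCA1-null control libraries. Its difference was 0.56 ± 0.0673 in control (adjusted p = 1.92e-04) and 0.43 ± 0.0669 in entinostat (adjusted p = 8.66e-04), and the spans of RHOBTB2 and LOC286059 overlap it. TNFRSF1A, the main TNF receptor, was the highest death-domain receptor per kb in each group and differed by 0.40 ± 0.129 in control (adjusted p = 0.0319) and 0.39 ± 0.130 in entinostat (adjusted p = 0.0380). Those calls depended on single libraries: in control without BRCA1+ control replicate 2 or BRCA1-null control replicate 1, and in entinostat without BRCA1+ entinostat replicate 2 or either BRCA1-null entinostat library, the adjusted p was 0.0583 to 0.255. TNFRSF10A (DR4), the other death receptor of TRAIL, and TNFRSF21 (DR6) were not called between the lines.

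Decoy receptors were called for 2 of 4 in each medium (50%, beside 42.2% and 39.4% of all genes), a share near that of all genes. TNFRSF6B (DcR3), a soluble decoy that binds TL1A, LIGHT and Fas ligand, had 177 and 181 counts in untreated and 101 and 182 in treated BRCA1+ libraries, and 455 and 461 in untreated and 398 and 335 in treated BRCA1-null libraries. It was higher by 1.14 ± 0.148 in control (adjusted p = 3.06e-04) and 1.19 ± 0.160 in entinostat (adjusted p = 3.84e-04), with reads that the readthrough RTEL1-TNFRSF6B may share. TNFRSF10C, a TRAIL decoy without a cytoplasmic tail, overlaps LOC254896 on the same strand, and reads may be shared. It had 7 and 10, 4 and 14, 23 and 25, and 25 and 26 counts in the same order. Its differences of 1.27 ± 0.428 (adjusted p = 0.0398) and 1.31 ± 0.416 (adjusted p = 0.0327) were lost in 5 and 4 of the 8 omissions (adjusted p = 0.0508 to 0.156 and 0.0503 to 0.164), in control without any 1 of the 4 control libraries or BRCA1-null entinostat replicate 1, and in entinostat without BRCA1+ control replicate 1, BRCA1+ entinostat replicate 1 or either BRCA1-null entinostat library. Without BRCA1+ entinostat replicate 2 the entinostat difference was 2.16, and DESeq2's Wald test called neither (adjusted p = 0.208 and 0.179). TNFRSF10D and TNFRSF11B (osteoprotegerin, the decoy of RANKL) were not called in any comparison, at 13.9 to 21.4 and 20.3 to 35.0 CPM over the 8 libraries.

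**Figure D2:**
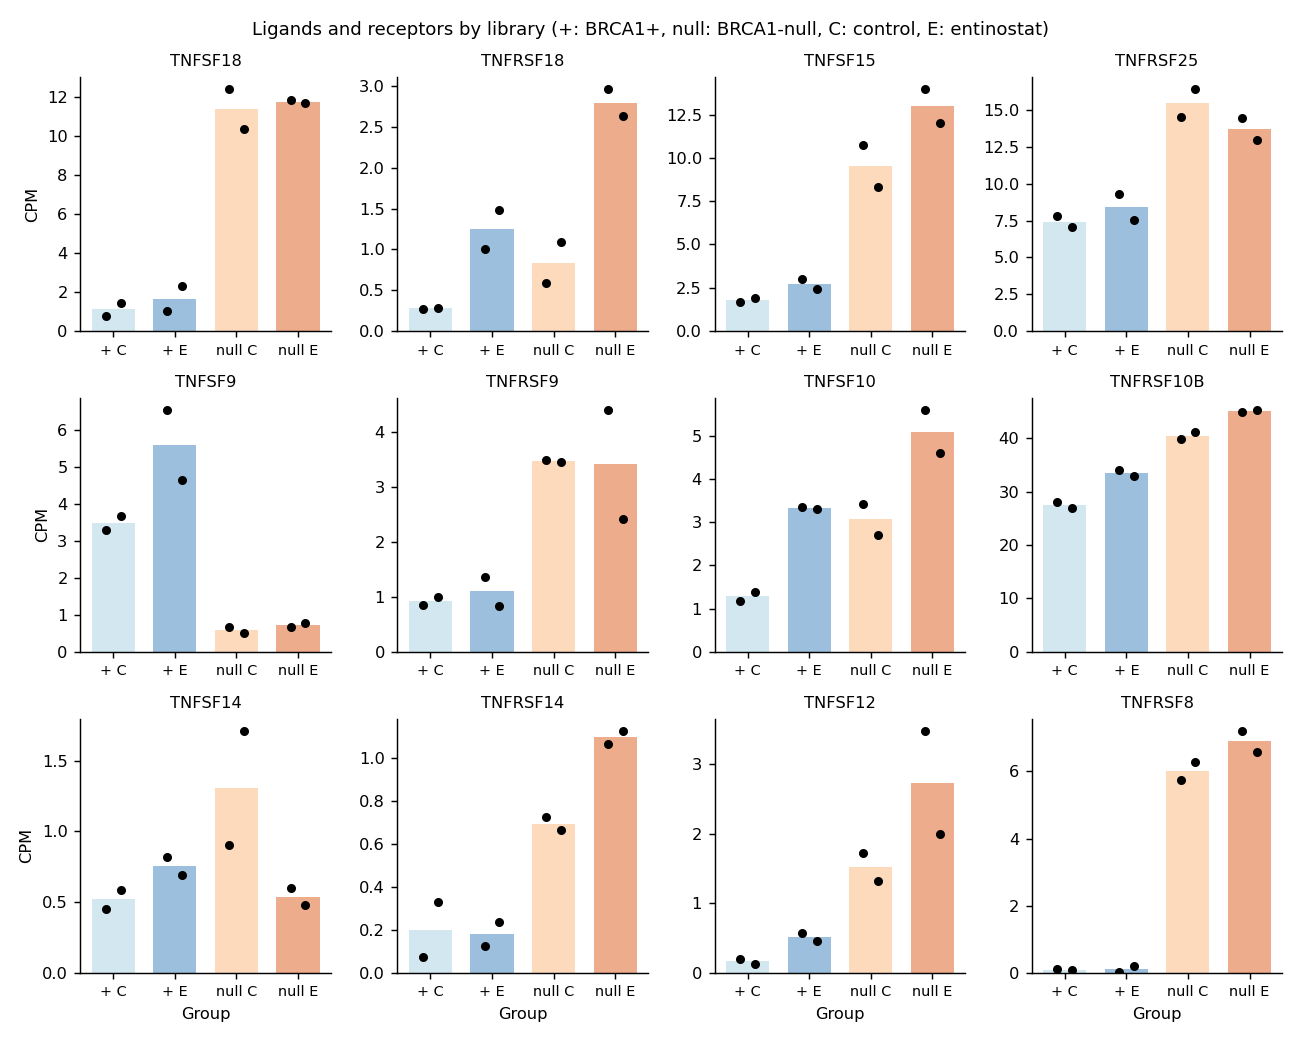
CPM (vertical axis, starting at 0, its scale set per gene) of 12 ligand and receptor genes in the 4 groups (horizontal axis); points are the 2 libraries and bars their mean. TNFSF18, TNFSF15 and TNFRSF8 are higher in every BRCA1-null library, TNFSF9 is lower, and TNFSF10 and TNFRSF18 are also higher with entinostat in both lines.

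All 5 NF-kB subunits were called higher in BRCA1-null control cells, and 4 of the 5 in entinostat, beside 21.1% and 20.5% of all tested genes. For each of them every BRCA1-null library lay above every BRCA1+ library of the same medium in CPM. The same held for 36% of all tested genes in control and 36.3% in entinostat. RELB, the partner of the NFKB2 product p52 in the non-canonical pathway, had 600 and 498 counts in untreated and 475 and 539 in treated BRCA1+ libraries, and 1158 and 1462 in untreated and 1003 and 903 in treated BRCA1-null libraries. It showed the largest subunit difference in control, 1.03 ± 0.150 on the log2 scale (adjusted p = 6.04e-04), and 0.71 ± 0.155 in entinostat (adjusted p = 0.00575), lost there without BRCA1+ entinostat replicate 2 (adjusted p = 0.0719). NFKB2, the precursor of p52, had 1586 and 1402, 1431 and 1723, 2976 and 3391, and 3039 and 2557 counts in the same order. Its difference was 0.87 ± 0.124 in control (adjusted p = 5.52e-04) and 0.62 ± 0.125 in entinostat (adjusted p = 0.00363), and both held in every omission. The order of the subunits' differences was not tested.

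RELA, the transactivating subunit of the canonical dimer, had 3440 and 4054 counts in untreated and 2598 and 3896 in treated BRCA1+ libraries, and 5340 and 6839 in untreated and 5178 and 5026 in treated BRCA1-null libraries. The log2 fold change was 0.48 ± 0.0650 in control (adjusted p = 3.93e-04) and 0.48 ± 0.0657 in entinostat (adjusted p = 4.56e-04), in all omissions past the threshold. NFKB1, the precursor of p50, had 2875 and 2839, 1940 and 2488, 3831 and 4407, and 3700 and 3568 counts. It was higher by 0.31 ± 0.0906 in control (adjusted p = 0.0232) and by 0.52 ± 0.0922 in entinostat (adjusted p = 0.00186), and the control call was lost without BRCA1+ control replicate 2 or either BRCA1-null control library (adjusted p = 0.0591 to 0.159). REL, a subunit best known from lymphocytes, had 694 and 676, 574 and 780, 1021 and 1038, and 926 and 948 counts. Its difference of 0.37 ± 0.122 in control (adjusted p = 0.0348) was lost without BRCA1+ control replicate 2, either BRCA1+ entinostat library or BRCA1-null control replicate 1 (adjusted p = 0.0507 to 0.214), and in entinostat it was not called (adjusted p = 0.0978). Per kb the order of levels was RELA, NFKB1, NFKB2, RELB and REL in all 4 groups, from 33.8 ± 0.626 down to 2.05 ± 0.238 CPM per kb in BRCA1+ control and from 47.2 ± 2.32 down to 2.65 ± 0.302 in BRCA1-null control cells.

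Of the 4 IkB genes, 3 were called higher in BRCA1-null cells in both media, beside 21.1% (control) and 20.5% (entinostat) of all tested genes. NFKBIE (IkB-epsilon) had 176 and 154 counts in untreated and 206 and 232 in treated BRCA1+ libraries, and 586 and 760 in untreated and 626 and 627 in treated BRCA1-null libraries. It was higher by 1.80 ± 0.163 in control (adjusted p = 3.82e-05) and 1.33 ± 0.156 in entinostat (adjusted p = 1.82e-04). NFKBIZ, a nuclear IkB protein that acts as a co-regulator of some NF-kB genes, had 202 and 187, 195 and 223, 553 and 565, and 707 and 571 counts in the same order. The difference was 1.31 ± 0.161 in control (adjusted p = 2.31e-04) and 1.42 ± 0.157 in entinostat (adjusted p = 1.26e-04), and the span of NXPE3 overlaps the gene on the same strand. NFKBIA (IkB-alpha), the classical inhibitor and feedback target, was the highest of the IkB genes per kb in every group and differed by 0.73 ± 0.0697 (adjusted p = 5.10e-05) and 0.66 ± 0.0689 (adjusted p = 9.03e-05). NFKBIB (IkB-beta), whose promoter is printed above with a match, was not called, and its BRCA1-null libraries, at 31.4 to 34.3 CPM, ran up to the lower edge of the BRCA1+ libraries, at 34.3 to 39.7 CPM.

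Among the signalling regulators, 5 of 6 were called higher in BRCA1-null cells in both media and BIRC2 in neither. Of all tested genes 21.1% were called higher in control and 20.5% in entinostat. TNFAIP3 (A20), the ubiquitin-editing enzyme that shuts NF-kB signalling off, lies at chr6:138188325-138204451 on hg19 (plus strand), where the span of the opposite-strand gene LOC100130476 overlaps it. It had 717 and 781 counts in untreated and 783 and 1024 in treated BRCA1+ libraries, and 3772 and 3696 in untreated and 5277 and 4125 in treated BRCA1-null libraries. The separation was wide, 17.5 ± 0.649 against 75.4 ± 10.5 CPM in control, and the log2 fold change was 2.11 ± 0.117 in control (adjusted p = 2.96e-06) and 2.18 ± 0.115 in entinostat (adjusted p = 2.57e-06). TRAF1, an adaptor that binds TRAF2 and is itself induced by NF-kB, had 39 and 37, 56 and 59, 166 and 190, and 282 and 254 counts. Its difference was 2.01 ± 0.220 in control (adjusted p = 1.18e-04) and 2.03 ± 0.186 in entinostat (adjusted p = 4.46e-05). TRAF2, the adaptor common to many of these receptors, was higher by 0.35 ± 0.109 in control (adjusted p = 0.0269) and 0.35 ± 0.110 in entinostat (adjusted p = 0.0300), and was lost without BRCA1+ control replicate 2 or either BRCA1-null control library, and without BRCA1+ entinostat replicate 2 or either BRCA1-null entinostat library (adjusted p = 0.0614 to 0.244).

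BIRC3 and BIRC2 (cIAP2 and cIAP1) are ubiquitin ligases of the receptor complex that lie side by side on chromosome 11, BIRC3 at chr11:102188181-102210135 and BIRC2 at chr11:102217913-102249401 on hg19 (both plus strand). BIRC3 had 503 and 305 counts in untreated and 671 and 587 in treated BRCA1+ libraries, and 2040 and 1525 in untreated and 2975 and 1727 in treated BRCA1-null libraries, and was higher by 1.93 ± 0.362 in control (adjusted p = 0.00252) and 1.67 ± 0.338 in entinostat (adjusted p = 0.00390). BIRC2 stayed between 55.9 and 60.4 CPM in all 8 libraries and was not called. TNFAIP2, a TNF-inducible gene linked to cell motility, had 2059 and 2225 counts in untreated and 4200 and 5440 in treated BRCA1+ libraries, and 4798 and 5381 in untreated and 8914 and 7059 in treated BRCA1-null libraries. Its line difference was 1.03 ± 0.0851 in control (adjusted p = 2.45e-05) and 0.53 ± 0.0815 in entinostat (adjusted p = 8.74e-04).

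**Figure D3:**
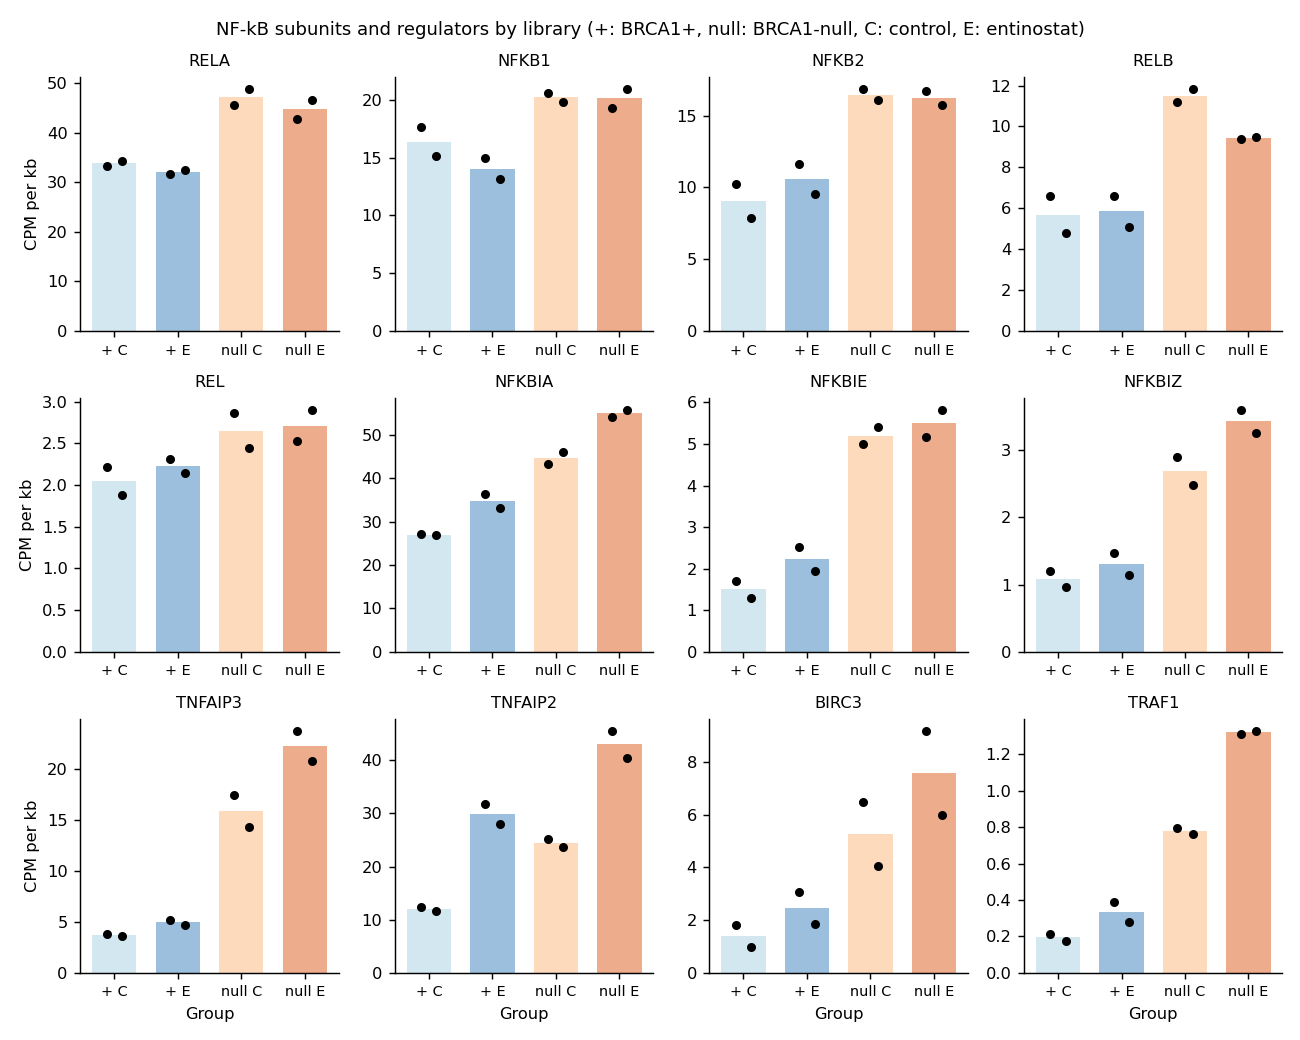
CPM per kb of gene length (vertical axis, starting at 0, its scale set per gene) of the NF-kB subunits, 3 IkB genes and 4 signalling regulators in the 4 groups (horizontal axis); points are the 2 libraries and bars their mean. For 11 of the 12 genes every BRCA1-null library lies above every BRCA1+ library, beside 20.1% of all tested genes. The 12 genes shown were all called higher in control, so this count does not stand for all the regulators. Not shown are TRAF2, which separates the same way, BIRC2, which does not separate, and NFKBIB, for which every BRCA1-null library lies below. For TNFAIP2 the BRCA1+ entinostat libraries lie above the BRCA1-null controls.

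Neighbouring genes were set beside each locus as a description. Over the nearest tested genes, up to 25 on either side (50 in all, 46 for TNFRSF18 and 47 for TNFRSF4), the median log2 fold change between the lines was -0.23 to 0.45 in control and -0.20 to 0.49 in entinostat across the 44 loci. RELA, at 0.48 in control, had a neighbourhood median of 0.28, and TNFRSF8, at 5.97, one of -0.14. The highest medians were those around TNFRSF6B, 0.45 in control and 0.49 in entinostat, beside its own 1.14 and 1.19.

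Entinostat changed fewer of the 44 genes. In BRCA1+ cells 8 were called (18.2%, beside 14.1% of all tested genes), 7 rising (beside 8.13% of all) and TNFRSF12A falling (beside 6%). The median log2 fold change was 0.34 beside 0.00041 for all genes. In BRCA1-null cells 8 were called (18.2%, beside 10.8% of all), again 7 rising (beside 7.57%) and TNFRSF12A falling (beside 3.19%). The median was 0.20 beside 0.019. Treated and untreated libraries did not overlap for 26 of the 44 genes in BRCA1+ (22 higher, 4 lower, beside 57% of all genes) and 25 in BRCA1-null cells (19 higher, 6 lower, beside 54.7%). Past 1 in size on the log2 scale were 4 calls in BRCA1+ (beside 2.91% of all) and 1 in BRCA1-null cells (beside 3%). Called the same way in both lines were 5 genes (beside 6.84% of all tested genes), NFKBIA, TNFAIP2, TNFRSF18 and TNFSF10 rising and TNFRSF12A falling. The 2 lines share no library, but their calls share 1 estimate of spread over all 8 libraries and are not independent. These counts rest on few libraries: with 1 library omitted they ranged from 2 to 10 in BRCA1+ and from 2 to 9 in BRCA1-null cells. In BRCA1+ cells they were 5, 2, 3 and 3 without BRCA1+ control replicate 1 or 2 or BRCA1+ entinostat replicate 1 or 2. In BRCA1-null cells they were 5 without either BRCA1+ entinostat library and 2 without BRCA1-null control replicate 2 or BRCA1-null entinostat replicate 1.

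TNFAIP2 gave the firmest response. BRCA1+ libraries stood at 48.5 and 51.5 CPM untreated and at 117 and 132 treated. BRCA1-null libraries stood at 99.0 and 105 CPM untreated and at 169 and 190 treated, so treated and untreated libraries did not overlap in either line. The log2 fold change was 1.32 ± 0.0856 in BRCA1+ cells (adjusted p = 1.68e-04), and 0.81 ± 0.0815 (adjusted p = 0.00124) in BRCA1-null cells, and both calls held in every omission. TNFRSF18, with the counts given above, rose by 2.19 ± 0.447 in the BRCA1+ line (adjusted p = 0.0136), and by 1.70 ± 0.272 (adjusted p = 0.00724) in BRCA1-null cells. The BRCA1+ call was lost without either BRCA1+ control library or BRCA1+ entinostat replicate 2 (adjusted p = 0.0647 to 0.132), and the BRCA1-null call in no omission. TNFSF10 rose by 1.36 ± 0.238 in the BRCA1+ line (adjusted p = 0.00758, and 0.0617 without BRCA1+ entinostat replicate 2), and by 0.75 ± 0.173 (adjusted p = 0.0283) in BRCA1-null cells. That BRCA1-null call was lost without either BRCA1+ entinostat library, BRCA1-null control replicate 2 or BRCA1-null entinostat replicate 1 (adjusted p = 0.0528 to 0.165), and by DESeq2's Wald test (adjusted p = 0.0668).

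Smaller calls were made for 2 genes in both lines. NFKBIA rose by 0.37 ± 0.0712 in the BRCA1+ line (adjusted p = 0.0111), and by 0.30 ± 0.0672 (adjusted p = 0.0262) in BRCA1-null cells, and was lost without BRCA1+ control replicate 2 or BRCA1+ entinostat replicate 1 in the former (adjusted p = 0.0649 and 0.0823) and without any 1 of the 4 BRCA1-null libraries in the latter (adjusted p = 0.0729 to 0.144). TNFRSF12A fell by 0.36 on the log2 scale in the BRCA1+ line (SE 0.0813, adjusted p = 0.0210), and by 0.31 (SE 0.0810, adjusted p = 0.0413) in BRCA1-null cells. Its calls were lost without any 1 of the 4 BRCA1+ libraries in the former (adjusted p = 0.0506 to 0.130), and in the latter without BRCA1+ control replicate 2, either BRCA1+ entinostat library, BRCA1-null control replicate 2 or BRCA1-null entinostat replicate 1 (adjusted p = 0.0505 to 0.214).

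In BRCA1+ cells the test also called TNFRSF11A (RANK), the receptor of RANKL, with 27 and 26 counts in control and 54 and 58 in entinostat libraries (1.22 ± 0.351, adjusted p = 0.0497). In BRCA1-null cells it had 20 and 12 counts in control and 50 and 28 in entinostat libraries and was not called (adjusted p = 0.0632). TNFRSF10B and TNFRSF21 rose in BRCA1+ cells by 0.29 ± 0.0693 (adjusted p = 0.0268) and 0.34 ± 0.0728 (adjusted p = 0.0165). All of these 3 calls were lost without any 1 of the 4 BRCA1+ libraries (adjusted p = 0.0602 to 0.217), and TNFRSF11A also by DESeq2's Wald test (adjusted p = 0.110) and with no filter (0.0563). Called in BRCA1-null cells and not in BRCA1+ cells were 3 genes. TNFAIP3 rose by 0.49 ± 0.103 (adjusted p = 0.0203), TRAF1 by 0.76 ± 0.146 (adjusted p = 0.0146) and TNFSF12-TNFSF13 by 0.46 ± 0.122 (adjusted p = 0.0452). Treated BRCA1+ libraries also lay above untreated ones for all 3, short of the threshold (adjusted p = 0.0588, 0.115 and 0.107). TNFAIP3 was lost without BRCA1-null control replicate 2 or BRCA1-null entinostat replicate 1 (adjusted p = 0.112 and 0.122), TRAF1 without those libraries or BRCA1-null entinostat replicate 2 (adjusted p = 0.0551 to 0.0839), and the readthrough without either BRCA1+ entinostat library or any 1 of the BRCA1-null libraries (adjusted p = 0.0711 to 0.222), and TRAF1 by DESeq2's Wald test (adjusted p = 0.0555). Fitted to the BRCA1-null libraries alone, the calls of NFKBIA, TNFAIP3, TNFRSF12A, TNFSF10 and the readthrough were lost (adjusted p = 0.0641 to 0.0930), as was TNFRSF10B when the BRCA1+ libraries were fitted alone (adjusted p = 0.0509). A call in one line and not in the other does not show that the lines differ. None of the 5 NF-kB subunits was called with entinostat in either line, and RELA stood at 81.9 to 84.0 CPM in treated and 86.0 to 88.3 CPM in control BRCA1+ libraries.

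**Figure D4:**
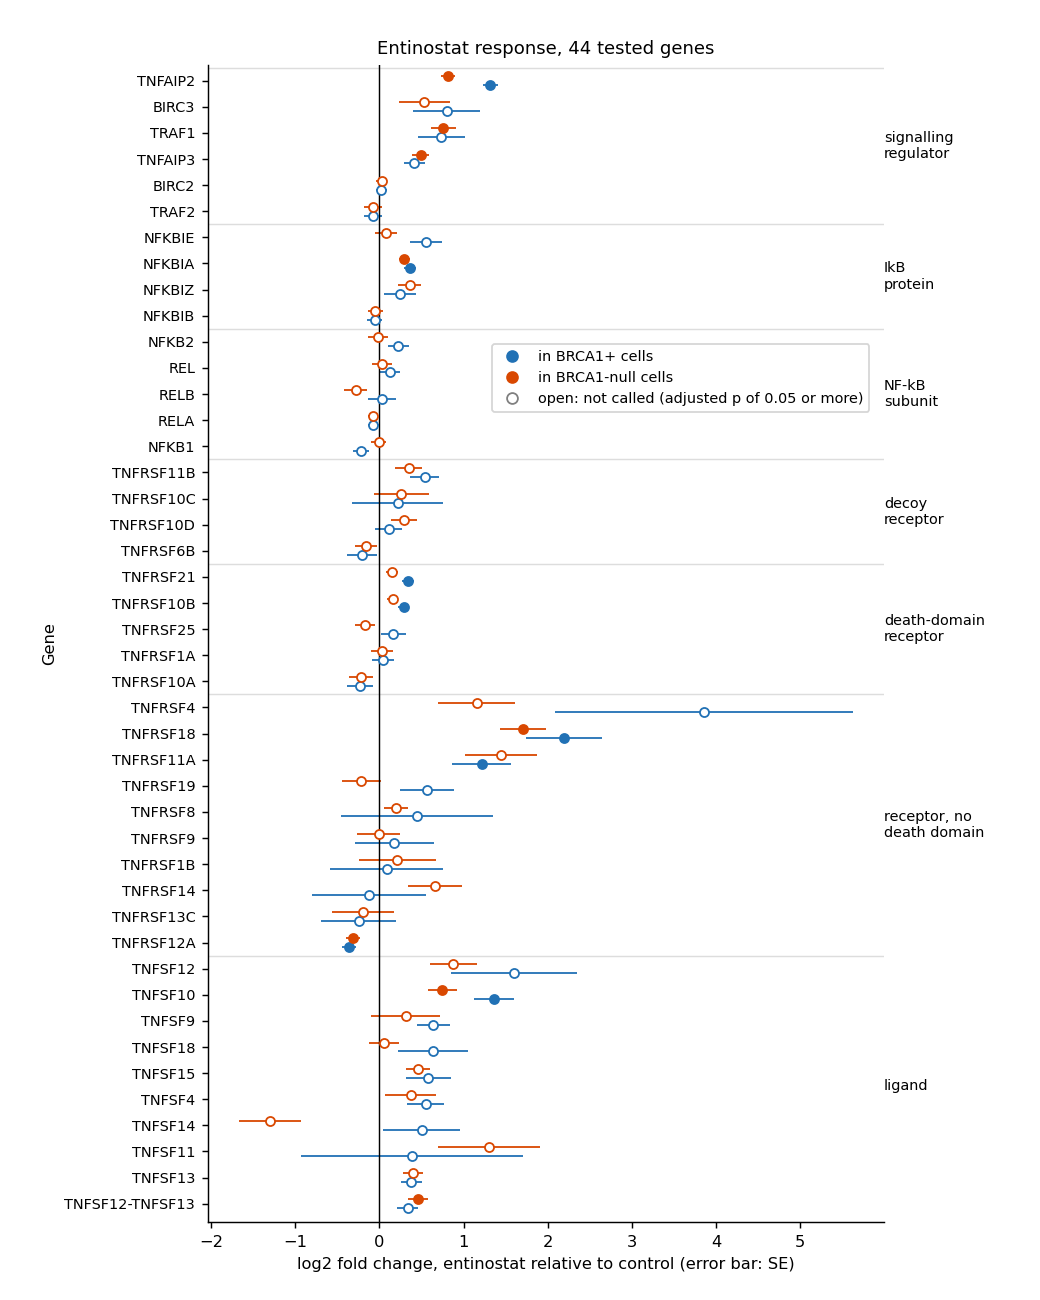
Log2 fold change of entinostat relative to control for the 44 tested genes (horizontal axis, points with standard errors), by gene and role (vertical axis), in BRCA1+ and in BRCA1-null cells. Filled points are called, 8 in each line; the wide TNFRSF4 point in BRCA1+ cells rests on 0 counts in control and is not a fold to be read.

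Whether the response depended on the line was tested as the difference of the 2 entinostat effects. By edgeR's quasi-likelihood test 0 of the 44 genes were called (beside 0% of all tested genes), with a smallest adjusted p of 0.967, and 2 of the 44 had an unadjusted p under 0.05, beside 827 of 17714. DESeq2's Wald test called 0 of these genes and 11 genes in all. One of the 2 was TNFAIP2, whose effect was smaller in BRCA1-null cells by 0.51 on the log2 scale (-0.51 ± 0.117, unadjusted p = 0.00190, adjusted p = 0.967). The other was TNFSF14, which had 18 and 27 counts in untreated and 26 and 32 in treated BRCA1+ libraries, and 41 and 93 in untreated and 28 and 20 in treated BRCA1-null libraries. In CPM both treated libraries lay above the controls in BRCA1+ and below them in BRCA1-null cells, but neither effect was called (0.50, adjusted p = 0.526, and -1.30 ± 0.372, adjusted p = 0.0559, or 0.0209 without BRCA1-null control replicate 1).

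The rest of the pathway was followed in 3 lists with 95 genes in all, of which 82 were tested. The lists were compiled from general knowledge with earlier results of these data known, so they are not independent of these data. Between the lines 43 of the 82 (52.4%) were called in control (34 higher, 9 lower in BRCA1-null cells) and 45 (54.9%) in entinostat (36 higher, 9 lower), beside the 42.2% and 39.4% of all genes given above. The control count was 26 without BRCA1+ control replicate 2, and the entinostat count 26 without BRCA1+ entinostat replicate 2. Most of the control calls belonged to the 37 tested NF-kB target genes, 27 of which (73%) were called in control, 24 higher and 3 lower, with a median log2 fold change of 0.72. INHBA, a subunit of activin, was higher by 4.85 ± 0.243 (adjusted p = 1.92e-06), PTX3, a secreted pattern-recognition protein, by 3.79 ± 0.255 (adjusted p = 7.77e-06) and IL1A, the alarmin interleukin 1 alpha, by 2.68 ± 0.168 (adjusted p = 5.73e-06). In entinostat 24 of the 37 were called, 21 higher and 3 lower, with CXCL5, a neutrophil chemokine, higher by 2.04 ± 0.353 (adjusted p = 0.00164).

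Of the adaptors, kinases and ubiquitin enzymes, 12 of 36 were called in control (33.3%, 7 higher, 5 lower) and 16 in entinostat (44.4%, 11 higher, 5 lower), near the 42.2% and 39.4% of all genes. OTULIN, a deubiquitinase of linear chains, fell by 0.54 in BRCA1-null control cells (SE 0.0748, adjusted p = 4.33e-04), XIAP was higher by 0.50 ± 0.0686 (adjusted p = 4.45e-04) and TNIP2, a partner of A20, by 0.43 ± 0.0965 (adjusted p = 0.00665). Of superfamily genes outside the naming rule 4 of 9 were called in control (44.4%) and 5 in entinostat (55.6%), beside the same shares of all genes. CD40, a co-stimulatory receptor that signals through TRAFs and the non-canonical pathway, had 391 and 363 counts in BRCA1+ control and 2733 and 3223 in BRCA1-null control libraries, a log2 fold change of 2.76 ± 0.108 (adjusted p = 4.71e-07). FAS, the death receptor of Fas ligand, went the other way, at -0.58 ± 0.0914 (adjusted p = 9.36e-04). Fas ligand and CD40 ligand stayed at 1 to 4 and 2 to 7 counts per library, and TNF, LTA and LTB are placed in the table on an alternative chromosome 6 haplotype with 0 counts in all libraries, so their levels could not be read here.

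With entinostat, 11 of the 82 pathway genes were called in BRCA1+ cells (13.4%, 10 rising), no more than the 14.1% of all genes, and 17 in BRCA1-null cells (20.7%, 14 rising), beside 10.8%. Of the 37 target genes 9 rose and 0 fell in BRCA1+ cells (24.3% called), beside 8.13% and 6% of all tested genes. In BRCA1-null cells 11 rose and 1 fell (32.4% called), beside 7.57% and 3.19%. The medians were 0.55 and 0.50, beside 0.00041 and 0.019 for all genes. Among targets with a mean log2 CPM of 1 or more, the same 3 genes had the largest called changes in both lines. CXCL8 (interleukin 8) had 4306 and 3628 counts in untreated and 6347 and 7049 in treated BRCA1+ libraries, and 5042 and 3941 in untreated and 14721 and 9688 in treated BRCA1-null libraries, and rose by 0.91 ± 0.232 (adjusted p = 0.0315) and 1.58 ± 0.232 (adjusted p = 0.00518). IL1A rose by 1.68 ± 0.188 (adjusted p = 0.00120) and 1.00 ± 0.121 (adjusted p = 0.00251), and TNFAIP8, a TNF-inducible regulator of survival, by 0.89 ± 0.204 (adjusted p = 0.0224) and 0.84 ± 0.204 (adjusted p = 0.0326). The adaptor list had 2 calls in BRCA1+ (5.56%) and 4 in BRCA1-null cells (11.1%), beside 14.1% and 10.8% of all genes. Among them in both lines was CFLAR, the inhibitor of caspase-8 activation, which fell by 0.28 (SE 0.0638, adjusted p = 0.0227) and 0.26 (SE 0.0626, adjusted p = 0.0318). With 1 library omitted the pathway counts ranged from 4 to 11 in BRCA1+ and from 4 to 14 in BRCA1-null cells, at 5, 4 and 5 in BRCA1+ without BRCA1+ control replicate 2, BRCA1+ entinostat replicate 1 or 2. In BRCA1-null cells they were 10 without either BRCA1+ entinostat library, 7 and 4 without BRCA1-null control replicate 1 or 2, and 5 and 9 without BRCA1-null entinostat replicate 1 or 2.

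Epithelial markers summed to 13440 to 17932 CPM in every library of this carcinoma line, and the Mullerian list to 500 to 666 CPM. In the Mullerian list group means were 347 to 379 CPM for PAX8 and 86.9 to 154 CPM for MUC16 and MSLN. WT1 had only 13 to 20 counts per library in BRCA1+ and 1 to 6 in BRCA1-null cells. The lists for other cell types summed to far less. Leukocyte markers (7 genes) summed to 16.6 CPM in BRCA1+ control, 23.1 to 25.3 in BRCA1+ entinostat, 27.1 to 28.2 in BRCA1-null control and 31.0 to 39.2 in BRCA1-null entinostat libraries, with CD3E and CD79A at 0 to 4 counts. Endothelial markers (3 genes) summed to 8.75 to 15.4, 26.1 to 37.2, 32.3 to 52.4 and 69.8 to 90.2 CPM, and fibroblast markers (5 genes) to 12.9 to 17.8, 26.4 to 34.1, 29.8 to 44.3 and 40.9 to 59.6 CPM, with DCN and LUM at 0 counts throughout. Single genes carried much of these sums. From BRCA1+ to BRCA1-null control the mean CPM of CDH5 went from 5.49 to 36.8 and that of CD68 from 9.01 to 21.2, while PECAM1 went from 5.42 to 2.87, CD14 from 2.61 to 0.646 and PTPRC from 2.98 to 2.60. The part of these markers in the differences above was not tested.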

How the data were processed

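Poly(A) RNA of 8 libraries was sequenced by the authors on a HiSeq instrument, aligned to hg19 with TopHat and counted per gene with NGSUtils, and the deposited values used here are these raw counts. The handling of strand, multiply mapped reads and overlapping genes is not given in the sources used here. Groups followed the labels (line by treatment, 2 libraries each). The 1 row with no gene name held 0 counts. From the counts, edgeR 4.0.16 (R 4.3.3) was run on all 8 libraries with filterByExpr, TMM scaling, group means and the quasi-likelihood F test. The test was two-sided, with Benjamini-Hochberg adjustment over 17714 genes and 4 residual degrees of freedom. A common biological coefficient of variation, estimated apart from that fit, was 9.04%. The test was checked on simulated counts. At the library sizes given, 3 counts equalled 0.0552 to 0.0946 CPM, taken as the floor of a library; it and the interval of a count ratio cover counting error only. Replicates differed beyond sampling noise. The alternatives tried were scaling by DESeq2's size factors or by upper quartiles, testing without a filter, a filter of CPM of at least 1 in at least 2 libraries, DESeq2 1.42.0, a replicate block, a fit to only the groups compared, a log2 change past 1 in size as a second criterion, and leaving out each library. The genes and lists were chosen with earlier results of these data known. All 48 genes could be named; counts in every library are given for genes called with a log2 change past 1 in size, for the 5 subunits, and for genes at or under 3 counts in one group and above in another, and of each pathway list the 3 largest called changes among genes averaging log2 CPM 1 or more. BRCA1 was given as a check of the labels. Promoters came from RefSeq (GRCh38.p14).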

Additional observations from a re-analysis of the deposited data

Results flagged for a closer look

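TNFSF14 (LIGHT) was flagged because both treated libraries lay above both controls in BRCA1+ cells and below them in BRCA1-null cells. Neither effect was called. Treated and untreated libraries did not overlap, in either direction, for 57% (BRCA1+) and 54.7% (BRCA1-null) of all tested genes. How many of all tested genes moved in opposite ways was not counted, so the flag does not set TNFSF14 apart from them. The difference between the responses was -1.80 ± 0.593 on the log2 scale by edgeR's quasi-likelihood test (unadjusted p = 0.0138, adjusted p = 0.967), so it did not pass the correction over all genes. TNFSF14 had 18 to 93 counts per library, and BRCA1-null control replicate 2 held 93 counts against 41 in replicate 1.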

How the results depend on the processing

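Of 76 calls of the 44 genes in the line and entinostat comparisons, 43 kept their direction and side of the threshold under the other scalings, filters, tests and fits and in all 8 omissions (a criterion on size aside), 33 lost the threshold at least once when 1 library was left out, 13 did so under another setting, and 0 reversed. Of the 44 genes, the calls between the lines numbered 21 to 31 in control and 22 to 29 in entinostat over the omissions, and the entinostat calls 2 to 10 (BRCA1+) and 2 to 9 (BRCA1-null). For the pathway lists these ranges were 26 to 43, 26 to 44, 4 to 11 and 4 to 14. A second criterion, a log2 change past 1 in size, left 18 of the genes between the lines in entinostat, 4 and 1 with entinostat (BRCA1+ and BRCA1-null), and 20, 20, 1 and 7 pathway genes in the 4 comparisons. Fitting only the groups compared gave 3 of the genes and 6 pathway genes with entinostat in BRCA1-null cells. The libraries share replicate numbers 1 and 2, which the labels tie to no batch. Over genes averaging log2 CPM 3 or more, deviations of same-numbered control and entinostat libraries correlated at 0.718 in BRCA1+ and 0.638 in BRCA1-null cells. Between the lines they correlated at 0.234 to 0.298. Over all tested genes the values were 0.287 and 0.2 within the lines and 0.0523 to 0.129 between them. The main test took no pairing of replicate numbers into account. With a replicate block the entinostat calls were 15 (BRCA1+) and 18 (BRCA1-null) (26 and 34 pathway genes), and those between the lines 32 and 31 (57 and 59 pathway genes). The block also raised the number of all tested genes with an unadjusted p under 0.05 by edgeR's quasi-likelihood test. With entinostat that number went from 5129 to 6513 (BRCA1+) and from 4856 to 6141 (BRCA1-null). Between the lines it went from 8965 to 10052 in control and from 8431 to 9475 in entinostat. The shares of all tested genes called with the block or in the omissions are not given here. The counts under these settings therefore show how far the calls move and not a trait of these genes. The interaction called 0 of the 44 and 0 pathway genes under every setting that could fit it, which a fit to only the groups compared cannot, while over all genes DESeq2's Wald test called 11 and the replicate block 1. Upper-quartile scaling moved the median of all genes by less than 0.1. With 2 libraries a group, genes under about 100 counts are the least certain, and the cause of the lost calls was not tested.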
